A study of Mus musculus with 5 samples.

Results

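In the library of Vγ6 γδ T cells sorted from ear skin, 188 of the 562 cells kept held at least 1 transcript of Il17a or Il17f, and these IL-17 transcript-positive cells were set against the 374 negative cells with none of either. A transcript is counted here as a unique molecular identifier (UMI), the tag that marks each captured messenger RNA molecule before amplification. Barcodes were kept with at least 200 genes detected, at most 10% mitochondrial UMIs and at least 800 UMIs, which left 562 of the 812 barcodes of this library, out of 7349 kept by the same limits in the whole series. The split was made on the measured Il17a and Il17f UMIs themselves, so values of these genes describe how the sides were chosen and are no finding. All other genes were compared between the sides.

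The series sequenced 5 libraries of sorted γδ T cells by droplet-based 3' single-cell RNA sequencing, 1 library for each sorted population and 1 pool. The skin Vγ6 library and the skin Vγ4 library, used below for comparison, came from ear skin of C57BL/6 mice aged 8 weeks, digested for 75 minutes at 37 °C. The thymus Vγ6 library came from C57BL/6 mice of the same age after lysis of CD4+ and CD8+ cells for 30 minutes at 37 °C, and the lymph node Vγ6 library from peripheral nodes of such mice. The pooled Vγ6 library mixed peripheral lymph node of TcrdCreER, thymus of ACT-FLPe and ear skin of TcrdH2BeGFP mice aged 8 to 10 weeks and was not demultiplexed. The labels do not give how many mice went into a library. Cells of 1 library are not replicates, and with 1 library there was no test of the split. Intervals below are 95% intervals that cover counting error only.

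Vγ6 cells are innate-like T cells that leave the thymus around birth, settle in skin dermis and other barrier tissues, and carry a fixed programme for making IL-17. Interleukin 17A and interleukin 17F are related secreted proteins that act on epithelial cells and fibroblasts, which then release antimicrobial peptides and chemoattractants for neutrophils. A cell that holds the programme need not be transcribing the cytokine genes at the moment it is captured, and cytokine messenger RNA is short-lived.

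The 2 genes used for the split lie next to each other on chromosome 1. The 250 bases before each RefSeq start in GRCm38.p6 are shown because promoters of genes that were higher in positive cells are set beside them below. Capitals mark matches to 4 motifs searched on both strands. These were the AP-1 motif TGANTCA, the ROR core AGGTCA bound by the nuclear receptor RORα, the cAMP response element TGACGTCA, and the ER stress response element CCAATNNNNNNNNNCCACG. The AP-1 and cAMP motifs read alike on both strands and were counted once. A match within this window was held by 6.87% of 27025 promoters for AP-1, by 13.8% for the ROR core, by 1.62% for the cAMP element and by 0.122% for the ER stress element.
Il17a, chr1:20730655-20730904, plus strand: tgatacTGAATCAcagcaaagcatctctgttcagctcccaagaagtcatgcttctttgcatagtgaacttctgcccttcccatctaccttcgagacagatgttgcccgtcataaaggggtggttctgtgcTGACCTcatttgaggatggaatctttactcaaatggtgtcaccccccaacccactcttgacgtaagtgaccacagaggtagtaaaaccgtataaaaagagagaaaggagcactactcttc
Il17f, chr1:20784271-20784520, minus strand: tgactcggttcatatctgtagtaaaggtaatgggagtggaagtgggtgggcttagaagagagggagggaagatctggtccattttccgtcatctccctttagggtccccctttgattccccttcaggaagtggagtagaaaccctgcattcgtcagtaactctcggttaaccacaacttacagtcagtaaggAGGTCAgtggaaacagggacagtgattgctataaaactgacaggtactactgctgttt
The Il17a window held 1 AP-1 match that began 244 bases before the start and 1 ROR core, on the opposite strand, at 120 bases. The Il17f window held 1 ROR core at 58 bases. A match is a description of letters and not a binding site.

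Il17 UMIs were spread very unevenly over the positive cells. Of the 188 cells, 83 held Il17a only, 60 held Il17f only and 45 held both. The median was 2 Il17 UMIs per positive cell, and 87 cells held exactly 1, whereas the highest cell held 98. The 10 highest cells carried 47.5% of all 1236 Il17 UMIs, and the 26 cells with 10 or more carried 69.2%. The negative side begins 1 UMI below the positive side, so the 87 cells with 1 UMI sit just inside the threshold and the 374 with 0 just outside it.

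**Figure D1:**
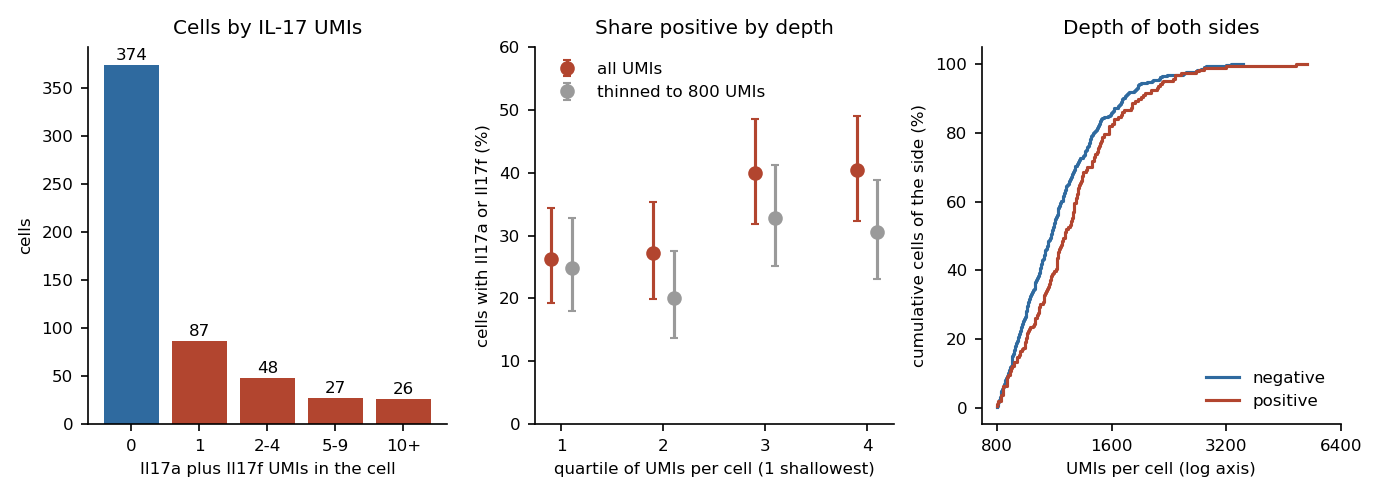
Left, number of cells (vertical axis) by Il17a plus Il17f UMIs per cell, with the 374 negative cells in blue and positive cells in red. Middle, percent of cells positive in each quartile of UMIs per cell, from 26.2% to 40.4% with all UMIs (red) and from 20% to 32.9% after thinning to 800 UMIs (grey), with exact binomial 95% intervals. Right, cumulative percent of cells against UMIs per cell on a log axis, where the positive side lies slightly to the right.

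Positive cells were somewhat deeper than negative cells. The median was 1206.5 UMIs and 655.5 genes per positive cell, against 1111 UMIs and 607.5 genes per negative cell. The ranges overlapped almost wholly, from 800 to 5208 UMIs in positive and from 801 to 3549 in negative cells. Mitochondrial UMIs took a median of 5.88% and 5.86%. The positive share was 33.5% (29.6 to 37.5, exact binomial) over all kept cells. By quartile of depth it was 26.2%, 27.1%, 40.0% and 40.4%, and after each cell was thinned to 800 UMIs it was 24.8%, 20%, 32.9% and 30.5%. Deeper cells therefore had the higher shares with all UMIs, and the upper 2 quartiles were also above the lower 2 after thinning, with intervals that overlapped. Thinned to that depth the whole library was 27.0% positive (23.4 to 30.9).

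Part of the positive cells with 1 UMI could carry free RNA, which droplets take up from lysed cells, and this was not tested. The sort left no sizeable population that should lack Il17 transcripts. The nearest was 37 kept cells without a UMI of Cd3d, Cd3e, Cd3g or Cd163l1, of which 6 were positive (16.2%, 6.19 to 32.0) at a median of 1005 UMIs. The share with 2 or more Il17 UMIs was 18.0% (14.9 to 21.4) over all kept cells. The same split made 73.8% of skin Vγ4 cells positive, 18.3% of pooled, 6.22% of thymus and 2.19% of lymph node Vγ6 cells, at higher median depths of 1421 to 2160 UMIs.

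The labelled cell type was checked against its markers. All 9 markers of IL-17-type γδ T cells other than the cytokines had UMIs in positive and in negative cells, with a summed level of 6910 counts per 1000000 UMIs (CPM, computed outside Il17a and Il17f) against 6151. Clustering without Il17a and Il17f gave 3 clusters. The main γδ T17-like cluster of 519 cells was 33.9% positive (29.8 to 38.2), and a γδ T17-like cluster of 35 cells led by cell division genes was 25.7% positive (12.5 to 43.3) at a deeper median of 2170 UMIs. The third, of 8 cells, was led by Xcl1, Ctla2a and Nkg7 and was dendritic epidermal T cell-like, with 3 positive cells. Positive cells were thus not a cluster of their own. In all, 10 of the 562 kept barcodes also occurred in another library of the series, and without them the gene counts given next were 104 higher and 67 lower.

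Across the transcriptome the sides differed little. UMIs outside Il17a and Il17f were summed over each side, 250948 for positive and 459103 for negative cells, and turned into CPM. Of 2752 genes with at least 50 CPM on either side, 97 were higher in positive cells (3.52% of genes measured) and 67 were lower (2.43%). Higher or lower means a ratio of at least 1.5-fold with a counting interval that excludes 1. Together these were 164 genes or 5.96%, and the interval alone excluded 1 for 9.81% of genes. An exact 95% interval leaves out at most 5% by construction, and only where counting error is the sole error. Single cells with many UMIs of a gene break that condition, so no excess can be read from these shares. Over all genes measured the log2 ratio had a median of 0.02. The split between directions depended on scaling, with 73 higher and 82 lower after TMM and 86 and 79 after median-of-ratios scaling. Single cells carried some of the genes, since in 11 of the 164 more than 50% of the UMIs on the higher side sat in 1 cell. With the highest cell of each gene left out on each side, 63 of the 97 and 55 of the 67 kept their call. Only Areg, Vdac2 and Eef1e1 among the higher and Rgcc among the lower genes kept it under all 19 other choices of cells and scaling.

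**Figure D2:**
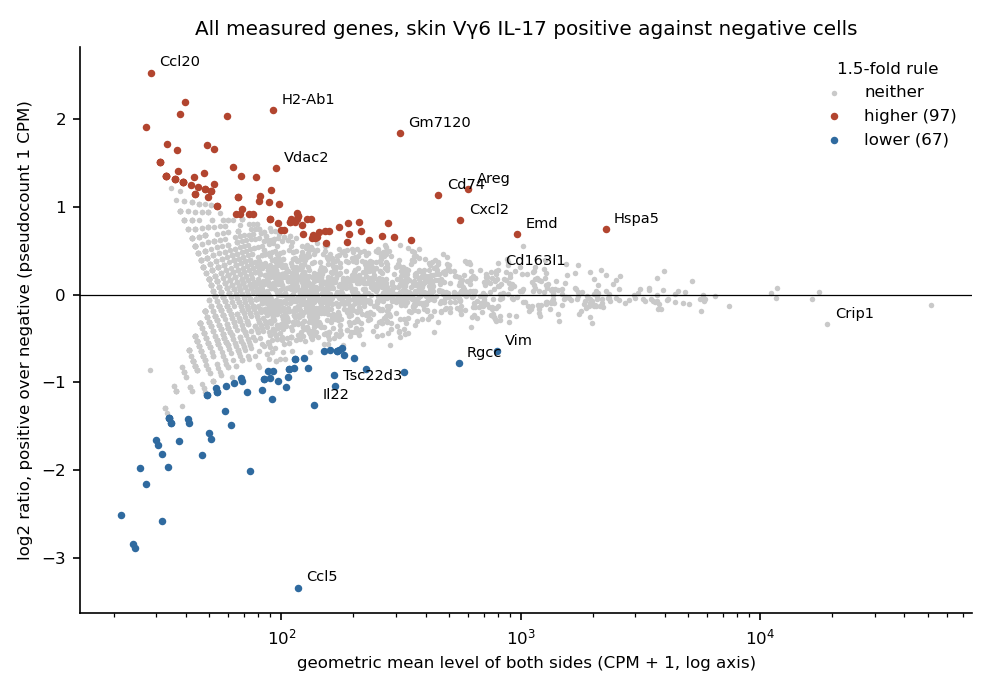
Each point is 1 of the 2752 genes measured, with the geometric mean level of both sides on the horizontal log axis (CPM + 1) and the log2 ratio of positive over negative cells on the vertical axis. The 97 higher genes are red and the 67 lower genes blue. Areg, Cxcl2, Emd and Hspa5 stand out among abundant genes, and most other coloured points lie at low levels.

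Among secreted factors, the gene with the clearest difference was Areg. It encodes amphiregulin, a ligand of the epidermal growth factor receptor known for its part in tissue repair (ENSMUSG00000029378, chromosome 5, 91139599 to 91148432). Areg was at 916.5 CPM (801.9 to 1043) in positive and 396 CPM (341 to 458) in negative cells, a ratio of 2.31 (1.90 to 2.82). A UMI of it was found in 33% of positive and 19.8% of negative cells, and in 25% and 15.8% after thinning. No cell held more than 21 of its 230 UMIs on the positive side, and without the highest cells the ratio was 2.21. Over the 19 choices of cells and scaling the ratio ran from 2.20 to 4.29.

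The chemokine Cxcl2, which attracts neutrophils, stood at 749 CPM in positive and 416 CPM in negative cells, a ratio of 1.80 (1.46 to 2.21). It was found in 34.0% against 19.5% of cells. Of its 188 positive UMIs 36 sat in 1 cell, and of its 191 negative UMIs 23 sat in 1 cell. Without the highest cells the ratio was 1.66 (1.32 to 2.07), and without dividing cells it was 1.52 (1.22 to 1.89). Split by Il17a alone, the ratio was 1.35 and short of the rule, whereas split by Il17f alone it was 2.10. Tnfsf11, the osteoclast and lymphoid tissue cytokine RANKL, was at 430 against 279 CPM, a ratio of 1.54 (1.18 to 2.01) that kept its call under only 9 of the 19 alternatives. Ccl20, the ligand of the receptor Ccr6, had only 17 UMIs on the positive and 5 on the negative side, a ratio of 6.22 (2.20 to 21.6). Without its highest cells its level was below the 50 CPM minimum.

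Other secreted factors went the other way or stayed level. Il22, a cytokine that acts on epithelial cells, was at 87.7 CPM in positive and 211 CPM in negative cells, a ratio of 0.41 (0.25 to 0.66). One negative cell held 49 of the 97 negative UMIs, and without the highest cells the ratio was 0.72 (0.40 to 1.26). The shares of cells with an Il22 UMI were close, at 9.04% and 9.36%. Tnf had a ratio of 1.28 (0.85 to 1.91). The growth factor gene Csf2 had 13 and 12 UMIs and a ratio of 1.98 (0.83 to 4.75), an interval too wide to place it.

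Among genes of protein folding and secretion, Hspa5 was higher. It encodes BiP, the main chaperone of the endoplasmic reticulum (ENSMUSG00000026864, chromosome 2, 34771970 to 34777547). Its level was 2933 CPM (2725 to 3153) in positive and 1743 CPM (1624 to 1868) in negative cells, a ratio of 1.68 (1.52 to 1.86). A UMI was found in 80.9% against 73.3% of cells, so the difference lay more in the amount per cell than in the share of cells. Among 138 positive and 238 negative cells with a T cell transcript and no other-type marker, the ratio was 1.37 (1.21 to 1.56). It was then short of the rule. Other-type markers here were those of keratinocytes, dendritic, Langerhans or macrophage, mast, fibroblast or endothelial and B cells, without Cd74 and Cst3.

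The promoters of these genes are shown beside those of the cytokine genes, again as the 250 bases before the RefSeq start in GRCm38.p6 with motif matches in capitals.
Areg, chr5:91139349-91139598, plus strand: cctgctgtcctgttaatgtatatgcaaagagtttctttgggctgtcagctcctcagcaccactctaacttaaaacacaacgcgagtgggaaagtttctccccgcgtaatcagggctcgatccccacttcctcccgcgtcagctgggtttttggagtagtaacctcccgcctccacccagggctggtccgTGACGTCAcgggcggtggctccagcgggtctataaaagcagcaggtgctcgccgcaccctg
Cxcl2, chr5:90903649-90903898, plus strand: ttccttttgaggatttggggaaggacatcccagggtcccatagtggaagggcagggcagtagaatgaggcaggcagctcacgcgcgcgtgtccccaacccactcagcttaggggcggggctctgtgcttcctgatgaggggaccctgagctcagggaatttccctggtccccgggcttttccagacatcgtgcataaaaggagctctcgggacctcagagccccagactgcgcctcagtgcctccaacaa
Hspa5, chr2:34771840-34772089, plus strand: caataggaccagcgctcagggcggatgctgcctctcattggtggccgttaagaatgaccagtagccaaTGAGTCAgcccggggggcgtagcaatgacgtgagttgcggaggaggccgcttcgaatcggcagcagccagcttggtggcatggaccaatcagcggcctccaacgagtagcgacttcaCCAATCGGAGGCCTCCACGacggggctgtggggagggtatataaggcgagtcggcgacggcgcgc
The Areg window held 1 cAMP response element at 61 bases before the start. The Hspa5 window held 1 ER stress response element at 65 bases and 1 AP-1 match at 182 bases. The GENCODE start of Hspa5 given above lies within this window, before the ER stress element and after the AP-1 match. None of the 4 motifs was in the Cxcl2 window. Il17a and Hspa5 thus both held an AP-1 match, and no motif was common to all 5 windows.

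The levels of Areg and Hspa5 were ordered by how much Il17 transcript a cell held, mainly through the class with the most. Areg was at 396 CPM in cells with 0 Il17 UMIs, 529 with 1, 576 with 2 to 4, and 1702 with 5 or more. The step lay at the top, since the interval of the last class, 1429 to 2012, was far above that of cells with 1 UMI, 403 to 683. Hspa5 followed the same order at 1743, 2126, 2153 and 4621 CPM. The last class held 53 cells at a median of 1263 UMIs outside Il17a and Il17f, against 1111 in negative cells. Against the negative cells, cells with 5 or more Il17 UMIs had an Hspa5 ratio of 2.65 (2.34 to 3.00) and an Areg ratio of 4.29. Cxcl2 differed in shape, at 416, 458, 1170 and 845 CPM, and so did emerin (Emd) at 760, 1023, 1661 and 1192 CPM. For Cxcl2, 1 cell held 36 of the 188 positive UMIs, and the class of that cell was not looked at. All these classes share the same negative cells, and the Il17 genes that define the classes were left out of the CPM.

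**Figure D3:**
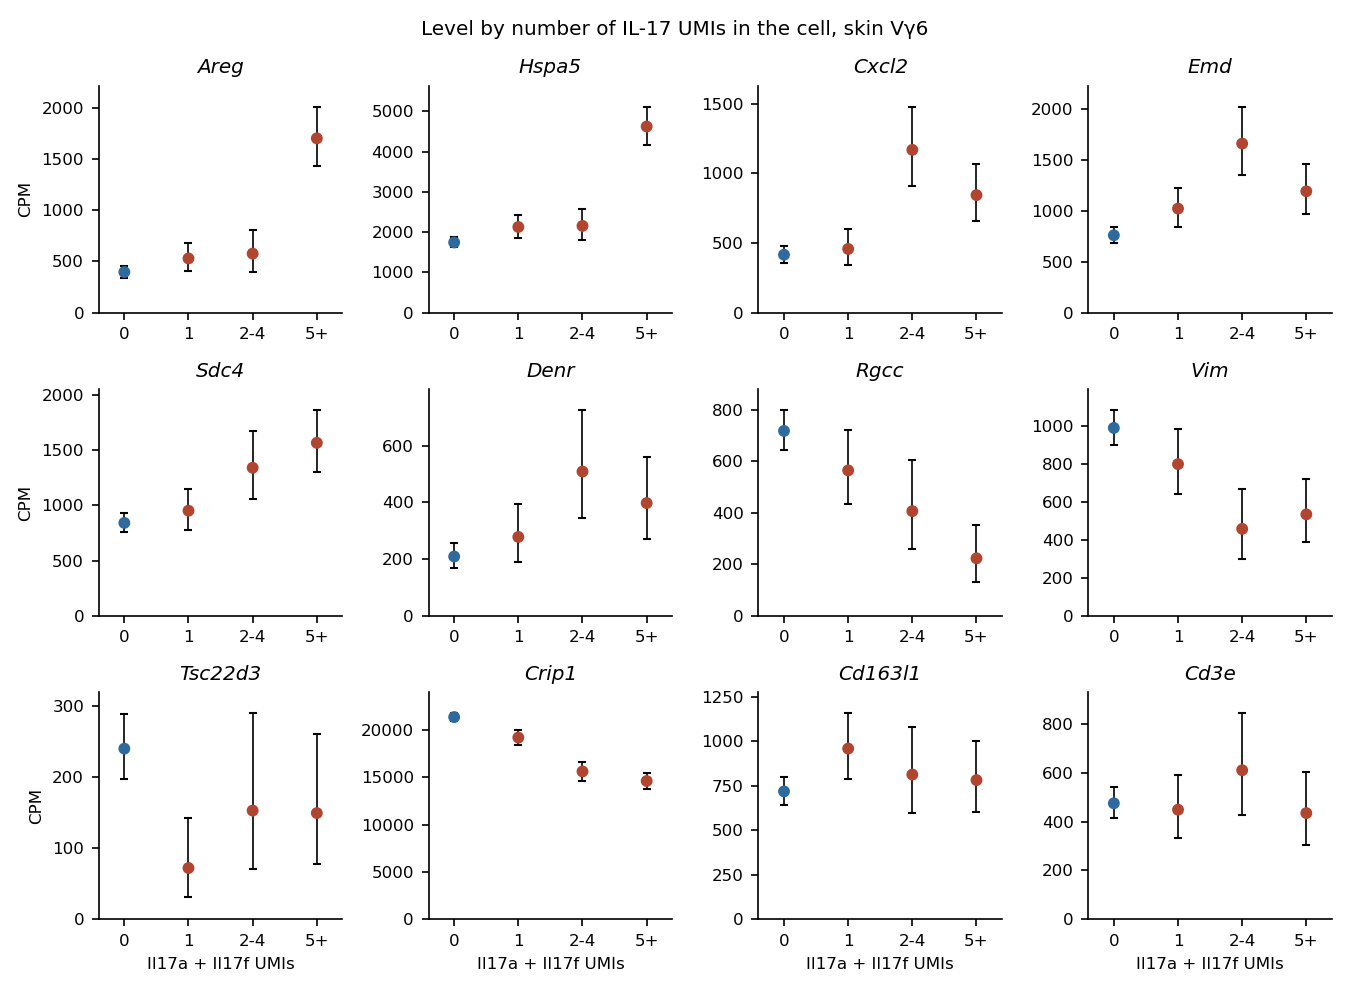
Level in CPM (vertical axis, from 0) of 12 genes in cells with 0 (blue), 1, 2 to 4, and 5 or more (red) Il17a plus Il17f UMIs, with exact Poisson 95% intervals. Areg, Hspa5 and Sdc4 were highest in the last class, Rgcc and Crip1 were lowest there, and Cd3e and Cd163l1 showed no such order.

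Levels also differed by which of the 2 cytokines a positive cell carried. Cells with both hold at least 2 Il17 UMIs by definition, whereas 53 cells with Il17a only and 34 with Il17f only held 1. For the class with both, the levels cannot be told apart from the order by Il17 UMIs given above. Areg was at 749 CPM in the 83 cells with Il17a only, 394 in the 60 with Il17f only and 1899 in the 45 with both. Cells with Il17f only thus sat at the level of negative cells. Hspa5 was at 2505, 2292 and 4528 CPM in the same classes. Cxcl2 was lower in cells with Il17a only, at 527 CPM, than in those with Il17f only, at 924, or both, at 909. Of the 188 positive Cxcl2 UMIs 36 sat in 1 cell. The class of that cell was not looked at, so this difference may rest on it.

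The remaining genes of the top 12 were chosen by the interval bound nearest to 1 among genes with at least 100 CPM and a UMI in at least 10% of cells of the higher side. Emd, which encodes emerin of the inner nuclear membrane, was at 1227 against 760 CPM, a ratio of 1.61 (1.38 to 1.89). Sdc4, a cell-surface heparan sulfate proteoglycan, had a ratio of 1.47 (1.27 to 1.72) and so missed the 1.5-fold rule. Denr, a translation reinitiation factor, had a ratio of 1.77 (1.32 to 2.38). Less abundant genes followed, each with at most 70 positive UMIs. They were Vdac2, a channel of the outer mitochondrial membrane, at 2.74 (1.63 to 4.70), the transcription factor Tshz1 at 2.80, the adiponectin receptor Adipor1 at 2.58, the mitochondrial ribosomal protein Mrps7 at 2.3 and the RNA-binding protein Hnrnpab at 1.78. Gm7120, now called Tmem267, had the highest ratio of the 12, 3.61 (2.72 to 4.83). One cell held 82 of its 148 positive UMIs. The same cell held 94 UMIs of Il17f and 4 of Il17a, the most Il17 UMIs of all, and 21 of Areg, the most on the positive side. Without the highest cells the ratio was 1.68 (1.18 to 2.38).

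Among the lower genes, Rgcc had the most stable difference. It encodes a regulator of cell cycle progression (ENSMUSG00000022018, chromosome 14, 79288756 to 79301645). Rgcc was at 418 CPM (342 to 506.5) in positive and 719 CPM (643 to 801) in negative cells, a ratio of 0.58 (0.46 to 0.73). By Il17 UMIs it stood at 719 CPM with 0, 565 with 1, 407 with 2 to 4 and 224 with 5 or more. Its order was thus the reverse of that of Areg. Cells with both cytokines held Rgcc at 146 CPM, against 508.5 in cells with Il17a only and 505 in cells with Il17f only.

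Vim, the intermediate filament protein vimentin, was at 634 against 989 CPM, a ratio of 0.64 (0.53 to 0.77). Tsc22d3, the glucocorticoid-induced leucine zipper protein that restrains inflammatory signalling, was at 116 against 240 CPM, a ratio of 0.48 (0.31 to 0.73). It was found in 12.2% of positive and 21.7% of negative cells, and its level was lowest in cells with 1 Il17 UMI, at 71.8 CPM, so that it had no order with Il17 UMIs. Anp32b, a nuclear histone-binding protein, had a ratio of 0.54 (0.40 to 0.73). Crip1, a small LIM-domain protein and one of the most abundant transcripts, was at 16900 against 21387 CPM, a ratio of 0.79 that missed the rule. Its level was nonetheless ordered by Il17 UMIs, at 21387 CPM with 0, 19219 with 1, 15631 with 2 to 4 and 14620 with 5 or more.

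The other low genes were rarer. Septin 11 (Sept11) had a ratio of 0.55, the alanyl-tRNA synthetase Aars 0.35, the ER membrane complex subunit Emc3 0.47, the condensin subunit Smc4 0.50, Scand1 0.44 and Commd7 0.48. Gm13075 had a ratio of 0.53, and 1 negative cell held 51 of its 104 negative UMIs. Without the highest cells its ratio was 0.97, whereas Vim and Rgcc were at 0.62 and 0.57 under that choice.

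No measured gene of the programme that makes a cell an IL-17-type γδ T cell passed the rule. Of 21 measured members of the IL-17 programme list, none was higher or lower, where 3.52% and 2.43% of all genes were. At these shares a list this short can hold no call. The median log2 ratio was 0.13, and 14 of the 21 had ratios above 1, beside 52.4% of all genes. Summed over the list the ratio was 1.06 (1.01 to 1.12). The lineage transcription factors Rora and Maf had ratios of 0.99 (0.83 to 1.18) and 1.09 (0.89 to 1.33). The receptors for the cytokines that trigger IL-17 release, Il23r and Il1r1, had ratios of 0.96 (0.71 to 1.28) and 0.71 (0.33 to 1.42). The survival cytokine receptor Il7r was at 1.01 (0.75 to 1.35). Cd163l1, the scavenger receptor typical of these cells, was at 869 against 719 CPM, a ratio of 1.21 (1.01 to 1.44). The chemokine receptor Cxcr6 was found in 92.0% and 89.0% of cells, with a ratio of 1.16 (1.05 to 1.27). At 12 and 31 UMIs the interval of Il1r1 allowed a level lower by 1.5-fold. Zbtb16, the innate T cell factor PLZF, had 5 and 17 UMIs and was below the minimum level.

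In the receptor, immediate early, NF-κB and heat shock lists no gene was called, where 5.96% of all genes were. At that share lists this short can hold no call. None of 11 T cell receptor complex and signalling genes was called, with a median log2 ratio of 0.06 and Cd3e at 1.02 (0.81 to 1.27). Nor was any of 12 cytokine receptors, at a median of 0.02. Of 23 immediate early genes none was called, the median was -0.05, and Nr4a1, a readout of recent receptor signalling, was at 0.88 (0.70 to 1.11). Junb, an AP-1 subunit, was at 0.96 (0.88 to 1.05). NF-κB genes were likewise uncalled in 18 of 18, with a median of 0.22, Rel at 1.20 (1.02 to 1.41) and Nfkbiz, a co-activator of IL-17 target genes, at 1.21 (0.87 to 1.66). Of 12 heat shock genes none was called, at a median of -0.02.

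None of 15 measured activation and checkpoint genes passed the rule, where 5.96% of all genes did. Of them 13 had ratios above 1, beside 52.4% of all genes measured. The median log2 ratio of the list was 0.23, beside 0.02 over all genes, and it ran from 0.05 to 0.48 over 24 alternatives. Crem, a transcription factor of the cAMP pathway, was at 1.23 (1.07 to 1.41), the endosomal sorting gene Vps37b at 1.25 (1.08 to 1.44), the protease Furin at 1.19 (1.07 to 1.33) and the TNF receptor Tnfrsf1b at 1.27 (1.02 to 1.58). The receptors Il2ra at 1.17 (0.93 to 1.48), Pdcd1 at 1.16 (0.89 to 1.5) and Icos at 1.13 (0.88 to 1.44) had intervals that included 1. Odc1, the first enzyme of polyamine synthesis, was at 1.08 (0.94 to 1.23) and the mRNA decay factor Zfp36 at 1.25 (0.85 to 1.81). Cd69 and Tnfrsf18 were the members below 1, at 0.85 and 0.56.

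Of 21 genes of ER and secretory load, 2 were higher and 1 was lower, where 3.52% and 2.43% of all genes were, and 13 had ratios above 1, near the 52.4% of all genes. The median log2 ratio was 0.17. Beside Hspa5, the disulfide isomerase Pdia4 was higher at 1.91 (1.04 to 3.48), from 25 and 24 UMIs. The lower gene was Dnajb9, a cochaperone of BiP, at 143 against 231 CPM and 0.62 (0.41 to 0.91). The stress transcription factor Xbp1 at 1.47 (0.87 to 2.47) and the chaperone Hsp90b1 at 1.30 (1.02 to 1.65) did not pass. Calr and Canx, which fold glycoproteins in the same compartment, were at 0.83 (0.62 to 1.09) and 0.71 (0.45 to 1.1).

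**Figure D4:**
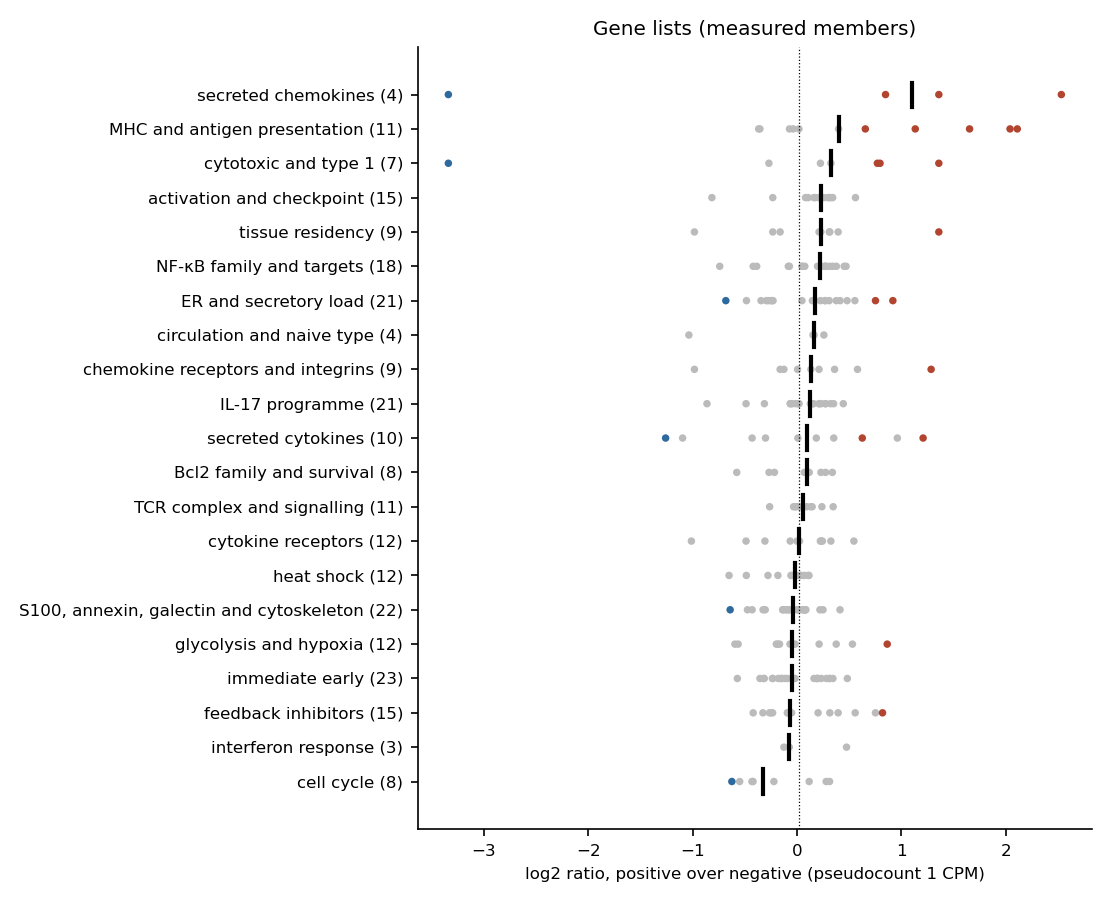
Log2 ratio of positive over negative cells (horizontal axis, pseudocount 1 CPM) for each measured member of 21 gene lists, with the number of members in brackets, higher genes in red, lower in blue and others in grey. Black bars are list medians and the dotted line is the median of all genes, 0.02. The most extreme points belong to the chemokine, cytotoxic and MHC lists.

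Metabolic and cytoskeletal lists had medians near that of all genes. The counts of called members below stand beside 3.52% higher and 2.43% lower over all genes. At these shares lists this short can hold few calls or none. Of 12 glycolysis and hypoxia genes, 1 was higher, the glycolytic kinase Pgk1 at 1.83 (1.13 to 2.97), and the median was -0.05. Of 22 S100, annexin, galectin and cytoskeleton genes only Vim was called. Feedback inhibitors had 1 higher member of 15, the ubiquitin ligase Peli1 at 1.77 (1.06 to 2.98). Of 9 chemokine receptors and integrins 1 was higher, the integrin subunit Itgb2 at 2.49 (1.07 to 6.00), from 15 and 11 UMIs. Of 8 cell cycle genes 1 was lower, the tubulin Tubb5 at 0.65 (0.43 to 0.96). The median of that list was not level, at -0.32. It was at or below -0.2 in 18 of 24 alternatives and at least 0.2 in 1. No lipid handling gene reached the minimum level. Survival genes had no call among 8, with the paralogs Bcl2a1b at 1.21 (1.12 to 1.30) and Bcl2a1d at 1.17 (1.06 to 1.30), between which reads of near-identical sequence may be divided.

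Several extreme ratios rested on individual cells that carried genes of another cell type. The MHC list had 5 higher members of 11, where 3.52% of all genes were higher. They were led by the class II genes H2-Ab1 at 4.39, H2-Aa at 4.22 and the invariant chain Cd74 at 2.20. One positive cell held 253 of the 349 positive UMIs of the 14 dendritic, Langerhans and macrophage markers, and it held all 30 of H2-Aa, 46 of 48 of H2-Ab1, 130 of 168 of Cd74 and all 21 of the Langerhans cell gene Cd207. This cell had 1957 UMIs and none of Cd3d, Cd3e, Cd3g or Cd163l1, and it was positive through 1 UMI of Il17f. In negative cells 1 cell held 111 of 321, also with no UMI of these 4 genes. The summed level of these markers was 1391 against 699 CPM, but without the top cell of each side they numbered 96 and 210 UMIs. Adgre1, Itgax and Mgl2 were at 0 on both sides. Without the highest cells, H2-Ab1, H2-Aa and Cd74 had ratios of 0.61, 0 and 0.88. The class I gene H2-Q7, also higher, was at 1.58 (1.03 to 2.41), with UMIs in 37 positive cells and at most 3 in any cell. The class I genes H2-K1, H2-D1 and B2m were at 0.97, 1.01 and 0.95.

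Among cytotoxic genes, the lowest ratio rested on 1 cell. Ccl5, a chemokine of effector lymphocytes, had the lowest ratio of all, 0.096, and 1 negative cell held 149 of its 171 negative UMIs. That cell had 2 UMIs of Cd3d and none of the class II genes. Without the highest cells the ratio was 0.67 (0.26 to 1.55). Gzmc and Xcl1, which also mark dendritic epidermal T cells, had ratios of 1.74 and 2.64, with 18 of 40 and 10 of 13 positive UMIs in 1 cell. Without the highest cells on both sides they were at 1.83 (0.97 to 3.46) and 2.74 (0.31 to 32.9) and no longer passed the rule. Gzmb was at 1.71 (1.17 to 2.49) and kept its call at 1.63 without them. Its direction was not stable, since it fell below 1 under several other choices listed near the end. Among these were 0.638 with T cell transcripts and no other-type markers, and 0.863 for 2 or more Il17 UMIs against 0. The summed dendritic epidermal T cell markers were at 960 against 928 CPM, a ratio of 1.03 (0.88 to 1.21).

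Markers of further cell types were scarce, lower in positive cells or had summed ratios with intervals that included 1. Of 10 keratinocyte markers 5 were at 0 on both sides, and the sum was 211 against 296 CPM, a ratio of 0.71 (0.51 to 0.99). One of them, Sfn, was among the lower genes at 0.60. The sums for neutrophil, mast cell, B cell, fibroblast or endothelial and αβ T cell lists were at most 7 UMIs on a side, and so were natural killer cell markers at 6 and 1. Red cell genes had 25 and 53 UMIs, a ratio of 0.86 (0.51 to 1.41). Group 2 innate lymphoid cell markers had 35 and 79 UMIs, a ratio of 0.81 (0.53 to 1.22). Of these 79 UMIs 19 sat in 1 negative cell, and without the top cell of each side the sums were 33 and 60 UMIs. Another choice kept only cells with a T cell transcript and no keratinocyte, dendritic or macrophage, mast cell, fibroblast or endothelial or B cell marker. Cd74, Cst3 and the markers of the remaining cell types were not used for it. With it 40 of the 97 higher and 31 of the 67 lower genes kept their call, from fewer cells. Under that choice Areg was at 2.33, Cxcl2 at 1.76, Emd at 1.56, Rgcc at 0.65 and Vim at 0.61, all still called. Gm7120 went from 3.61 to 1.5 (0.95 to 2.36) and, like Hspa5, lost its call.

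The same split was computed in 3 libraries that the selection did not use. They are another subset, another tissue or a mixture, and not replicates of skin Vγ6, and they too have 1 library each. The pool mixes tissues and was not demultiplexed. The positive share of Vγ6 cells was 33.5% in skin, 6.22% in thymus and 2.19% in lymph node. In the pool a difference between the sides therefore cannot be told apart from a difference between tissues. The lymph node library had only 32 positive cells and was left out. In skin Vγ4, 3.03% of 2674 genes were higher and 4.00% lower in positive cells. In the pooled library the shares were 5.42% and 5.90% of 3172 genes, and in thymus 9.58% and 8.86% of 3059.

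Areg was the 1 gene of the 97 that was also called higher in all 3. Its levels in positive and negative cells were 533 and 272.5 CPM in skin Vγ4, 427 and 175.5 in the pool, and 76.8 and 26.0 in thymus. The ratios were 1.96 (1.62 to 2.38), 2.43 (2.05 to 2.88) and 2.95 (1.95 to 4.33), beside 2.31 in skin Vγ6. Its level thus differed widely between libraries while the ratios lay close together. Hspa5 was at 1.40 (1.31 to 1.51), 1.62 (1.52 to 1.72) and 2.01 (1.88 to 2.14), and Emd at 1.43, 1.55 and 1.54 in the same order. Cxcl2 was at 1.79, 2.45 and, from few UMIs in thymus, 2.20 (0.56 to 6.31). Sdc4 was at 1.42, 2.20 and 4.56.

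Among the low genes, Tsc22d3 was below 1 in each, at 0.62 (0.52 to 0.74), 0.76 (0.59 to 0.96) and 0.64 (0.47 to 0.86), and it passed the 1.5-fold rule in skin Vγ4 and thymus but not in the pool. Rgcc was at 0.81 in skin Vγ4 but at 1.15 (0.99 to 1.32) in the pool and 1.07 (0.87 to 1.31) in thymus. Vim was at 0.90, 1.1 and 1.03, and Crip1 was above 1 in the pool at 1.30 and in thymus at 1.22. Vdac2, which kept its call under every choice of cells in skin Vγ6, was at 0.77, 1.06 and 0.86.

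Over all called genes, the shares on the same side were mostly a little above those of all genes. Of the 97 higher genes, 36 of 60 measured in skin Vγ4 were also above 1 there, or 60% against 49.2% of all genes measured in both. In the pool they were 37 of 67, or 55.2% against 50.5%, and in thymus 35 of 63, or 55.6% against 52.0%. For the 67 lower genes the shares below 1 were 32 of 52 or 61.5% in skin Vγ4, 21 of 47 or 44.7% in the pool and 26 of 47 or 55.3% in thymus, against 50.8%, 49.5% and 48.0% of all genes. On the same side in all 3 libraries were 13 of 50 higher genes, or 26.0%, and 11 of 38 lower genes, or 28.9%, where all measured genes gave 20.2% and 19.9%. Of the 97 higher genes, 7 (7.22%) were called higher in at least 2 of the 3 libraries, beside 2.40% of all 2752 genes. They were Areg, Cxcl2, Emd, Hspa5, Mis18a, Nfil3 and Tpbg. All 7 were called in the pool, where sides and tissues cannot be told apart, and all but Areg needed it to reach 2. Of the 67 lower genes, 3 (4.48%) were called lower in at least 2, beside 1.16%. They were Tsc22d3, called in skin Vγ4 and thymus, and Ccl5 and Smc4, both called in the pool and thymus. The call of Ccl5 in skin Vγ6 rested on 1 negative cell with 149 of 171 UMIs.

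**Figure D5:**
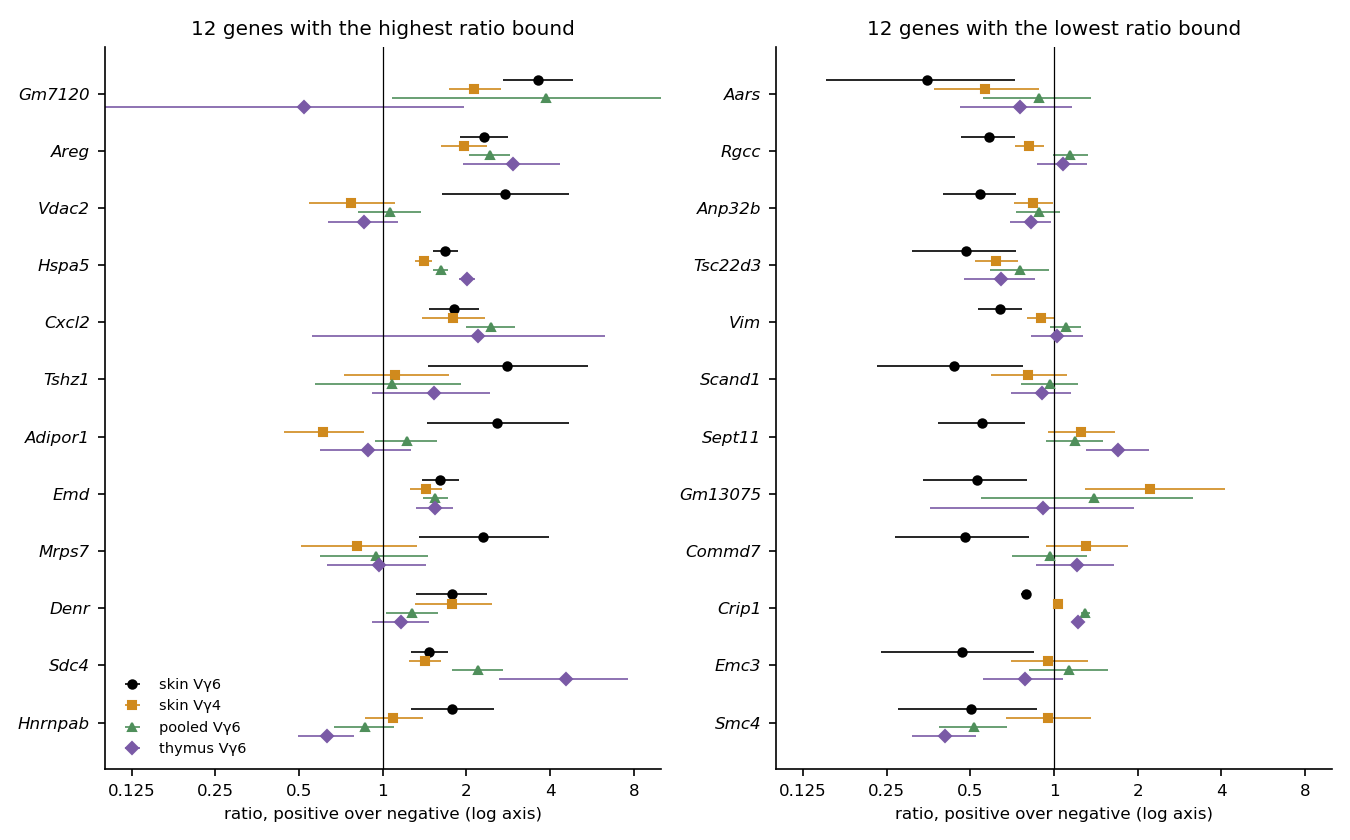
Ratio of positive over negative cells (horizontal log axis) with 95% counting intervals for the 12 genes with the highest (left) and lowest (right) ratio bound in skin Vγ6 (black), and for the same genes in skin Vγ4 (orange), pooled Vγ6 (green) and thymus Vγ6 (purple). Areg, Hspa5, Emd and Sdc4 lie above 1 with their intervals in all 4 libraries, and Tsc22d3 lies below 1 in all 4.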

How the data were processed

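The authors deposited, for each library, a matrix of raw UMI counts of 27998 genes per barcode with no normalization. Per the submitters' processing notes, Cell Ranger 2.0, Seurat 2.3 and the mm10 genome build were used. The 2 deposited cluster tables were not used here. The filters and the split are those given at the opening of the report. No doublets were removed in the main values, and an alternative left out the deepest 5% of cells. Counts were summed per side, scaled to CPM over UMIs outside Il17a and Il17f, and given with exact Poisson intervals, and ratios with exact conditional binomial intervals (scipy 1.17.1). List medians used log2 values with a pseudocount of 1 CPM. A floor of 3 counts was 12.0 CPM on the positive and 6.53 CPM on the negative side. Scripts were tested on simulated data. Clusters came from scanpy 1.11.5 (2000 variable genes, 30 principal components, 15 neighbours, Leiden resolution 0.5), and TMM factors from edgeR 4.0.16. Leading genes were the 12 highest and 12 lowest by the rule in the report, without mitochondrial, ribosomal protein and non-T marker genes. A fixed set of 24 genes and up to 3 called members of each of 22 lists were also named. One gene of the fixed set is not reported here. The members and lists were chosen with earlier results of these data known. The sample groups came from the titles. Gene positions are from GENCODE on GRCm38, matched by gene ID.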

Additional observations from a re-analysis of the deposited data

Results flagged for a closer look

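Some genes called in skin Vγ6 were called in the opposite direction in another library, and these differences were not tested. Adipor1, higher in skin Vγ6, had a ratio of 0.613 in skin Vγ4. Hnrnpab, higher in skin Vγ6, had a ratio of 0.631 in thymus, and Xcl1 had 0.223 in the pooled library. Of the lower genes, Gm13075 had a ratio of 2.22 in skin Vγ4, Sept11 had 1.70 in thymus and Dnajb9 had 1.57 in thymus. Il22, lower in skin Vγ6 largely through 1 negative cell, had a ratio of 2.14 in the pooled library and 5.35 in thymus.

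Barcodes that the filters left out also held Il17 transcripts. Of 125 barcodes under 800 UMIs that passed the other limits, 20 (16%) had a UMI of Il17a or Il17f, at a median of 674 UMIs, where a count of 0 would have allowed 2.40%. Of 73 barcodes over the mitochondrial limit that had at least 200 genes, 27 (37.0%) had one, at a median of 510 UMIs. A count of 0 would have allowed 4.11%.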

How the results depend on the processing

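No paired analysis was possible because each group has 1 library. The count of higher genes, 97, and of lower genes, 67, became 269 and 230 with the mean over cells in place of the sum, which has no counting interval of its own. They became 18 and 14 at a 200 CPM minimum and 53 and 39 at 2-fold. Lower genes numbered 110 at a 20 CPM minimum and 119 with no minimum, and higher genes numbered 64 without the highest cell of each gene, a choice added after seeing the data. The percent of cells positive, 33.5%, was 27.0% thinned to 800 UMIs, 40.2% with at least 1200 UMIs and 37.8% with at most 5% mitochondrial UMIs. For 5 or more Il17 UMIs against 0 the counts were 143 and 50, and for 2 or more 117 and 65. The genes called also differed between choices of cells. With at most 5% mitochondrial UMIs 17 of the 97 and 13 of the 67 were shared, and 37 and 28 were shared after thinning and splitting by thinned UMIs. Of the 164 genes, 29 changed direction under at least 1 choice of cells or scaling. Among named genes 8 reversed, the cause of which was not tested except where 1 cell was removed. Cd74 had a ratio of 0.519 with at most 5% mitochondrial UMIs, 0.400 for 2 or more Il17 UMIs against 0, 0.244 for 5 or more, 0.257 split by Il17a, 0.588 with T cell transcripts and no other-type markers, and 0.880 without the highest cells. H2-Ab1 had 0.779, 0.165, 0.285 and 0 under the first 4 of these and 0.610 without the highest cells. H2-Aa had 0 for both UMI thresholds, split by Il17a, and without the highest cells. Gzmb had 0.885 after thinning with the split, 0.445 with at most 5% mitochondrial UMIs, 0.863 for 2 or more UMIs, 0.962 split by Il17f and 0.638 without other-type markers. Gzmc had 0.898 by the mean over cells, 0.201 with at most 5% mitochondrial UMIs, 0.832 split by Il17a and 0.564 without the deepest 5% of cells. Xcl1 had 0.928 by the mean over cells, 0.999 thinned with the original split and 0.428 without the deepest cells. Gm13075 had 1.42 without other-type markers, and Tnfsf11 had 0.802 for 5 or more UMIs. The cytotoxic list median turned to -0.21 by the mean over cells, -0.14 and -0.21 by the 2 thinnings, -0.27 with no UMI minimum, -0.56 with at most 5% mitochondrial UMIs, -0.53 without other-type markers and -0.82 without the deepest cells. The MHC list median turned to -0.19 with at most 5% mitochondrial UMIs, -0.074 and -0.092 for 2 or more and 5 or more UMIs, -0.32 split by Il17a, -0.0098 at 200 CPM and -0.067 without the highest cells. The cell cycle median turned to 0.036 thinned with the original split and 0.21 without dividing cells, and the chemokine median to -1.25 at 200 CPM. At these depths 50 CPM is 12.5 UMIs on the positive and 23 on the negative side, so ratios of rare genes have wide intervals.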

Other observations

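Transcripts of cell division were found in 14 of the 188 positive and 45 of the 374 negative cells, counted by a UMI of Mki67, Top2a, Cdk1, Ube2c, Ccna2 or Ccnb1. Ribosomal protein genes took 16.3% of positive and 16.9% of negative UMIs, and mitochondrial genes 5.79% and 5.94%. None of their 96 and 12 measured members was called, where 5.96% of all genes were. Il5, a type 2 cytokine, had 3 UMIs on the positive and 35 on the negative side, a ratio of 0.16 (0.031 to 0.50), and the 35 UMIs sat in 9 cells, 16 of them in 1 cell. It was looked at after its values were seen.

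Some further called genes were picked after their values were seen. Eif2s1, the alpha subunit of translation initiation factor 2, had a ratio of 1.78 (1.11 to 2.86) and kept its call under 14 of 19 choices of cells and scaling. Eif2s3x, which encodes another subunit of that factor, was lower at 0.37 (0.11 to 0.97), from 5 and 25 UMIs, and kept its call under 11. Eef1e1, a scaffold of the tRNA synthetase complex, had 1.83 (1.18 to 2.83) and kept its call under all 19. The transcription factor Nfil3 had 1.66 (1.1 to 2.49) and kept its call under 11. Eif2s1, Eef1e1 and Nfil3 each rested on 38 to 49 positive UMIs, and no cell held more than 3 of them.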
